A study of Mus musculus with 8 samples.

Results

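Input mRNA of dendritic cell libraries labelled Mettl3 KO was set against that of libraries labelled WT, as a ratio within each of 2 replicate tables. The members are the 11741 named genes found in both tables, of 20599 in either, with no selection on their values, and only the 4 input libraries of the 8 in the series enter. Of these genes 10445 averaged 1 RPKM or more across the 4 libraries and were tested. RPKM scales the reads of a gene to its length and to the reads of the library.

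The libraries labelled KO (genotype Mettl3-/-, n = 2) and WT (n = 2) came from mature dendritic cells (maDC) of C57BL/6 mice, grown from the bone marrow of animals aged 6 weeks. By the study's methods the KO mice are Mettl3 fl/fl animals in which Cre, driven by the CD11c promoter, removes exons 2 to 4, and the WT mice are their littermates. All cultures had 10 ng/ml GM-CSF and 1 ng/ml IL-4, were enriched on CD11c beads and were matured for 24 h with 100 ng/ml LPS, the bacterial lipid that TLR4 senses. Cycloheximide was added before lysis and polyadenylated RNA was taken from part of the lysate. The promoter limits the deletion to cells that express CD11c, so other cells in a culture can keep the gene. Marrow of several mice was used, and neither labels nor methods say which went into which replicate. The series' design text states that no replicate was included, while titles of the later libraries number them replicate 2. Spread between the libraries may thus be technical, and p-values measure that spread alone.

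Mettl3 is the catalytic subunit of the complex that places N6-methyladenosine (m6A) in mRNA. Reader proteins bind the mark, and some of them, such as YTHDF2, bring mRNAs to decay, so the level of an mRNA can depend on it. Dendritic cells answer LPS through TLR4 with NF-kB and interferon programmes, the cytokines, costimulatory ligands and migration receptors by which they prime T cells.

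Mettl3 itself, on chromosome 14 (chr14:52294841-52308741, GRCm38.p6), had 6.27 and 11.9 RPKM in the libraries labelled KO (replicates 1 and 2), against 6.97 and 10.1 RPKM in those labelled WT. The log2 ratios, KO over WT, were -0.14 and 0.22, and the KO library was the higher one in replicate 2. Exons 2 to 4 hold 799 of the 2021 bases of the RefSeq transcript (39.5%), and if all transcripts lost them the log2 ratio would be -0.73. The gene-level input value thus did not separate the libraries by label, so they are called the libraries labelled KO or WT, and every higher or lower is by label. The study itself reports loss of Mettl3 mRNA and protein in KO maDC, removal of exons 2 to 4 in RNA-seq, and lower m6A.

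Several dendritic cell genes were high in all 4 libraries. Cd74, the invariant chain of MHC class II, had 1791 and 2520 RPKM in the libraries labelled KO, against 1804 and 2608 RPKM in those labelled WT. Ccl22, a chemokine of mature dendritic cells, had 2222 and 3703 RPKM with the KO label, against 1782 and 3288 RPKM with the WT label. Itgax, which encodes CD11c, lay between 16.2 and 25.8 RPKM. Macrophage genes were present as well, with Adgre1 (F4/80) between 362 and 553 RPKM. The dendritic cell markers Cd209a and Clec9a stayed under 1 RPKM in replicate 1 and are not listed in replicate 2. Reads behind the values could be recovered in replicate 2, with library totals of 8794578 (KO) and 9920474 (WT) reads and a median of 326 and 376 reads per tested gene. The depth of replicate 1 is unknown. Across genes, the KO and WT libraries of a replicate correlated at r = 0.98 and 0.99 on the log2 scale, and libraries of the same genotype in the 2 tables at 0.92 (KO) and 0.93 (WT), so only differences within a table were used.

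No gene passed the test between genotypes. With limma on log2(RPKM + 0.5), the replicate as a block and Benjamini-Hochberg adjustment, 0 of 10445 genes (0%) reached an adjusted p of 0.05, and the smallest adjusted p was 0.60. At an unadjusted p under 0.05 there were 122 higher and 218 lower genes, or 168 and 183 with each library centred on its median. The ratios were narrow in each replicate. Medians of the log2 ratio were -0.03 (replicate 1) and -0.01 (replicate 2), the SD over genes 0.34 and 0.30, and 91.9% and 94.6% of genes lay within 1.5-fold. Because no gene passed, the following gives values and counts in each replicate, and a gene is called higher or lower only as a description of these 4 libraries.

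The ratios of the 2 replicates did not run together. Across the 10445 genes they correlated at r = -0.12 (Spearman rho = -0.11), with genes that are not independent replicates. In the libraries labelled KO 2076 genes (19.9%) were above WT in both replicates and 2743 (26.3%) were below in both, while 5625 (53.9%) had opposite signs. At 1.5-fold or more, 11 genes were higher in both replicates (0.105% of those tested) and 16 lower in both (0.153%). With each library centred on its median these counts were 17 and 12. A further 76 genes passed 1.5-fold in opposite directions, 35 higher in replicate 1 and lower in replicate 2 and 41 the other way round.

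**Figure D1:**
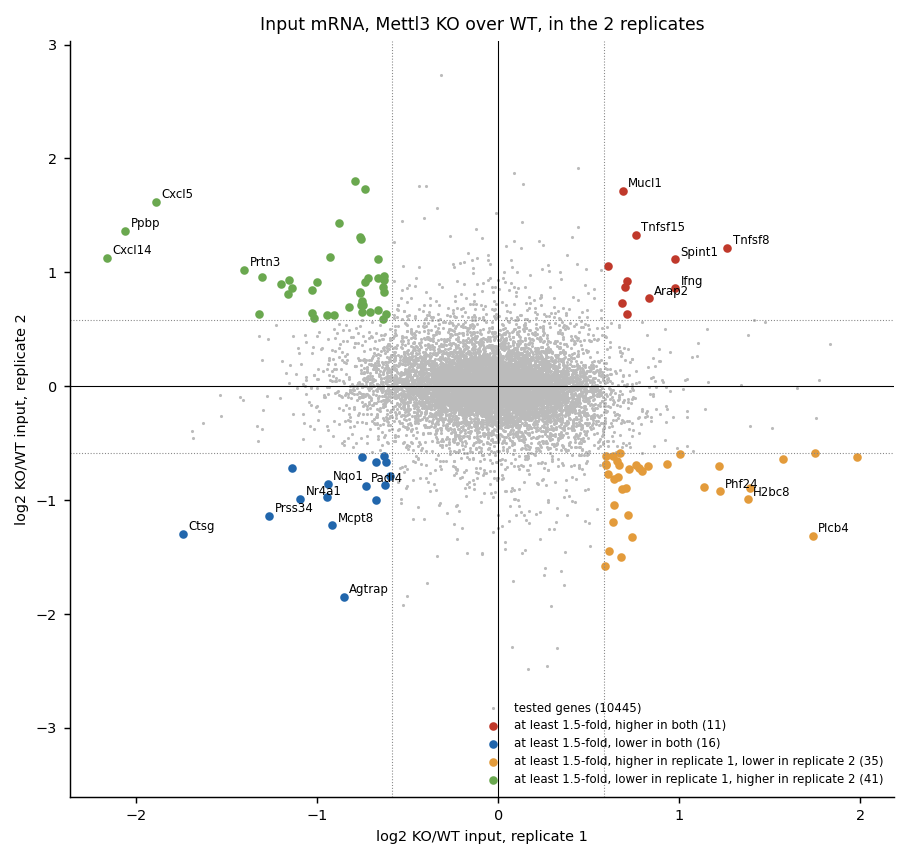
Each point is a gene, with its log2 KO/WT of input RPKM + 0.5 in replicate 1 (x axis) and replicate 2 (y axis), and dotted lines mark 1.5-fold. Of 10445 tested genes, 11 lie past 1.5-fold in the upper right corner and 16 in the lower left, against 35 and 41 in the corners of opposite sign.

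The 12 genes named upwards were Tnfsf8, Spint1, Ifng, Arap2, Tnfsf15, Gm15056, Ctsw, Mucl1, Lck, Cxcr6, Timp3 and Rnase2a, in order of the smaller of their 2 ratios. Tnfsf8 (chr4:63831202-63861508) encodes CD30 ligand, a signal to activated T cells. Its level was 5.35 and 5.82 RPKM in the libraries labelled KO (replicates 1 and 2), against 1.93 and 2.22 RPKM in those labelled WT. The fitted log2 ratio was 1.24 ± 0.19 (SE, 2 libraries a group, limma adjusted p = 0.60). In replicate 2 the reads were 114 with the KO label and 49 with the WT label, with an exact 95% binomial interval of the log2 ratio from 0.90 to 1.91, which covers counting error only. Tnfsf15, the ligand TL1A that costimulates T cells through DR3, had 5.92 and 12.2 RPKM (KO), against 3.29 and 4.53 RPKM (WT).

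Spint1 (chr2:119237360-119249535) encodes HAI-1, a membrane inhibitor of serine proteases. It had 21.0 and 21.2 RPKM in the libraries labelled KO, against 10.4 and 9.53 RPKM in those labelled WT, and the replicates were close to each other within each label. The fitted log2 KO/WT was 1.04 ± 0.16 (SE, 2 libraries a group, limma adjusted p = 0.60). St14, which encodes matriptase, a protease that HAI-1 inhibits, lay on the other side, with 4.15 and 3.74 RPKM (KO), against 7.32 and 6.00 RPKM (WT). Timp3, an inhibitor of metalloproteinases, had 2.87 and 1.17 RPKM with the KO label, against 1.72 and 0.301 RPKM with the WT label. Arap2, a GTPase-activating protein for Arf proteins, was among the better expressed genes of the group, at 34.0 and 25.3 RPKM (KO), against 18.8 and 14.6 RPKM (WT).

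Ifng, Ctsw and Lck, known from T and NK cells, and the chemokine receptor gene Cxcr6 were low in all 4 libraries. Ifng had 0.809 and 4.04 RPKM in the libraries labelled KO, against 0.164 and 2.00 RPKM in those labelled WT, and 43 and 24 reads in replicate 2 (KO and WT). Lck, the kinase at the T cell receptor, had 1.80 and 2.47 RPKM (KO), against 0.931 and 1.29 RPKM (WT). The remaining genes of the named 12 were Gm15056, Mucl1 and Rnase2a, an eosinophil-type ribonuclease on chromosome 14, with fitted log2 KO/WT of 0.82, 1.20 and 1.00. Of the 11 genes past 1.5-fold, 6 had a mean under 5 RPKM.

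Of the 16 genes that were lower in both replicates past 1.5-fold, 5 are on the marker lists of neutrophils or of mast cells and basophils, which hold 20 and 10 of the 10445 tested genes. Ctsg (chr14:56099885-56102574), cathepsin G of neutrophil granules, had 0.796 and 0.570 RPKM in the libraries labelled KO, against 3.84 and 2.12 RPKM in those labelled WT. Its fitted log2 ratio was the lowest of the 12 named downwards, at -1.52 ± 0.26 (SE, 2 libraries a group, limma adjusted p = 0.65). It rests on 5 (KO) and 21 (WT) reads in replicate 2. The basophil proteases Prss34 and Mcpt8 differed alike in direction. Prss34 had 1.42 and 5.61 RPKM (KO), against 4.12 and 12.9 RPKM (WT), and Mcpt8 had 3.34 and 13.03 RPKM (KO), against 6.75 and 31.0 RPKM (WT). Their levels differed more between the tables than between the genotypes. Padi4, which citrullinates histones in neutrophils, Mmp8, the neutrophil collagenase, and Prg2, major basic protein of eosinophils, had fitted log2 KO/WT between -0.93 and -0.62. In bulk RNA, fewer cells of a type and less RNA per cell cannot be told apart.

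Other genes of the group are not granule genes. Nr4a1 (chr15:101253902-101274795) encodes the nuclear receptor Nur77, induced soon after stimulation. It had 2.09 and 2.07 RPKM in the libraries labelled KO, against 5.03 and 4.60 RPKM in those labelled WT, and the fitted log2 ratio was -1.04 ± 0.20 (SE, 2 libraries a group, limma adjusted p = 0.71). Here too the replicates of a label were close in level. The tables may have been scaled separately, and these genes were picked for ratios shared by both replicates, so the closeness is a description only. Agtrap, which binds the angiotensin II type 1 receptor, had 507 (KO) and 2114 (WT) reads in replicate 2. Its level was 15.1 and 14.5 RPKM (KO), against 27.7 and 53.5 RPKM (WT), and the 95% counting interval of its log2 ratio in replicate 2 ran from -2.03 to -1.75. Rab44, Sh2b2, Ggt5 and Adam33 had fitted values of -0.96, -0.74, -0.67 and -0.84.

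**Figure D2:**
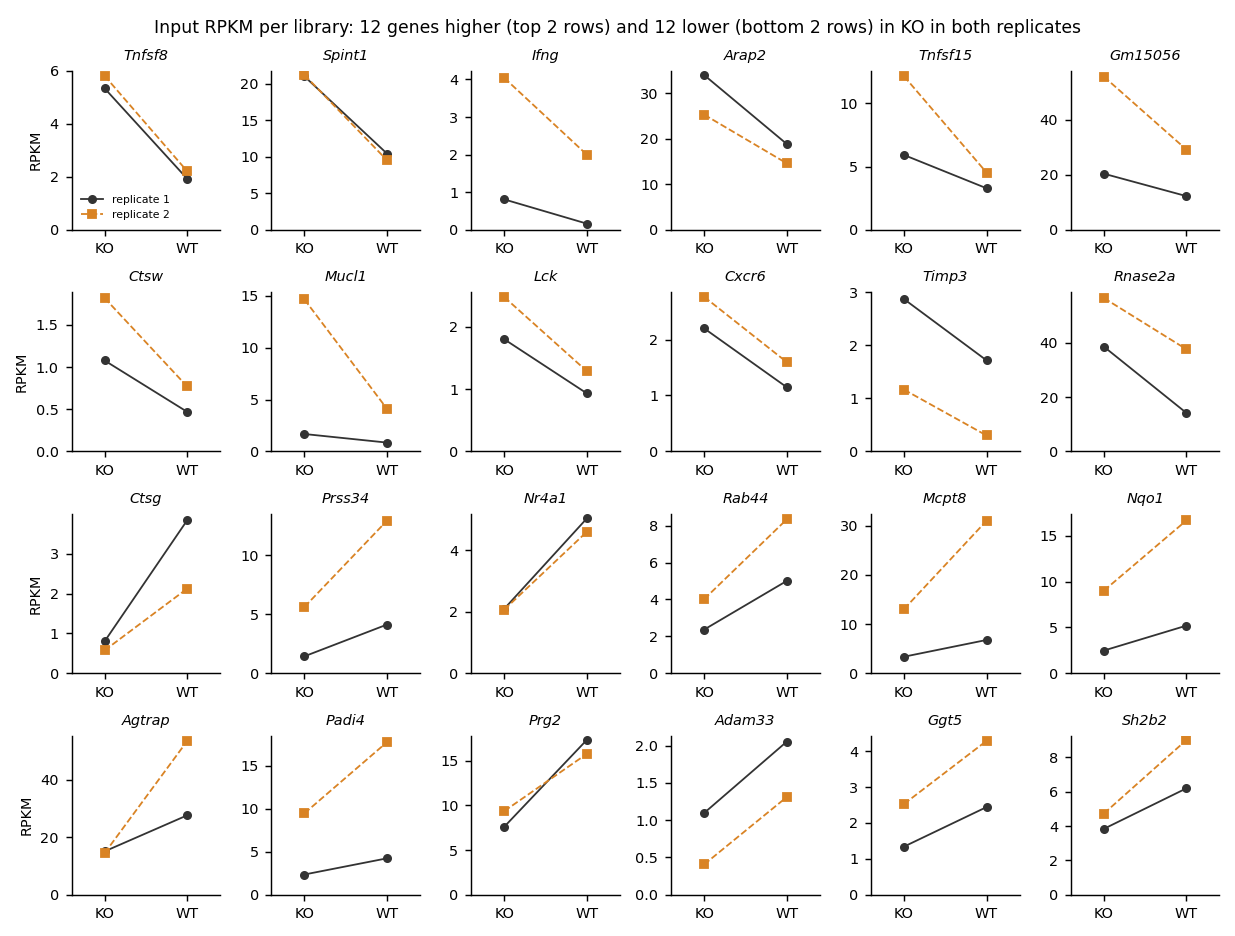
Input RPKM (linear axis from 0) of the 12 genes with the largest ratios shared by both replicates upwards (top rows) and the 12 downwards (bottom rows), with the library labelled KO left of the one labelled WT and a line per replicate. Tnfsf8, Spint1 and Nr4a1 have nearly the same values in both replicates, while Mcpt8, Padi4 and Mucl1 differ several-fold in level between replicates.

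Most targets of NRF2 had lower values in both libraries labelled KO. NRF2 is the transcription factor of the oxidative stress response and drives genes of glutathione, thioredoxin and NADPH metabolism. Of 29 tested targets 21 (72.4%) were below WT in both replicates, against 26.3% of all tested genes, and 0 were above in both. Their medians were -0.44 (replicate 1) and -0.17 (replicate 2) on the log2 scale, against -0.03 and -0.01 for all genes. Earlier results on these data already showed this list as lower, so the count is a description and no independent support.

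Nqo1 (chr8:107388225-107403205), a quinone reductase and a classic NRF2 target, had 2.46 and 9.01 RPKM in the libraries labelled KO, against 5.19 and 16.7 RPKM in those labelled WT. The fitted log2 KO/WT was -0.90 ± 0.17 (SE, 2 libraries a group, limma adjusted p = 0.71). Txnrd1, thioredoxin reductase, had log2 ratios of -0.49 and -0.52, with 39.5 and 80.6 RPKM (KO), against 55.6 and 116 RPKM (WT). Both subunits of the enzyme that starts glutathione synthesis were lower as well. Gclc had 5.65 and 12.6 RPKM (KO), against 7.31 and 21.4 RPKM (WT), and Gclm 21.1 and 51.3 RPKM (KO), against 31.7 and 71.9 RPKM (WT). Gclc, Gclm, Slc7a11, Hmox1, Me1 and Prdx1 were picked after their values were seen.

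Hmox1, heme oxygenase, was below WT in both replicates, at -0.52 and -0.07 on the log2 KO/WT scale. Of the 29 targets 8 had opposite signs in the replicates, against 53.9% of all tested genes. The cystine transporter gene Slc7a11 was 0.28 in replicate 1 and -0.37 in replicate 2. Ferritin heavy chain, Fth1, the member with the highest level, had 17882 and 11919 RPKM in the libraries labelled KO, against 28136 and 8198 RPKM in those labelled WT, so its sign turned between replicates.

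NRF2 binds the antioxidant response element, searched here as TGACNNNGC on both strands of RefSeq promoter windows (GRCm38.p6, 250 bases before to 50 after the start of a gene). Of 29 tested targets 24 had a window, and 8 of these (33.3%) held the motif, against 17.2% of the 8508 tested genes with a window. Targets with the motif had medians of -0.45 and -0.21, and those without it -0.43 and -0.19, close to each other. The windows of 4 targets that were lower in both replicates are shown with the motif in capitals, read 5′ to 3′ on the strand that carries it.
Me1: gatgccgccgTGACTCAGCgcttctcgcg (chr9:86695902-86695930, minus strand)
Prdx1: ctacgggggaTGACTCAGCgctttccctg (chr4:116685456-116685484, minus strand)
Gclm: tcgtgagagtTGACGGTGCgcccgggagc (chr3:122245413-122245441, minus strand)
Txnrd1: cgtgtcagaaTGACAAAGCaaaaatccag (chr10:82859104-82859132, minus strand)

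Interferon-inducible GTPases ran the other way. These GBP, IRG and Mx proteins act on the vacuoles of intracellular pathogens or on viruses and are induced by interferons. Of 18 tested members 12 (66.7%) were above WT in both replicates, against 19.9% of all genes, and 0 were below in both. Medians were 0.10 and 0.39, so the difference lay mainly in replicate 2. Tgtp1, an IRG family GTPase, had 24.1 and 5.26 RPKM in the libraries labelled KO, against 20.7 and 3.55 RPKM in those labelled WT. Mx1 had 264.8 and 262 RPKM (KO), against 234 and 186 RPKM (WT), a fitted log2 KO/WT of 0.33 with no call. Iigp1, named after its values were seen, was 0.11 in replicate 1 and 1.01 in replicate 2 on the log2 scale. Several of these genes are near-identical copies of each other, such as Tgtp1 and Tgtp2, and reads may have been split between them, so single members are uncertain.

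The wider list of antiviral interferon-stimulated genes had replicates of opposite sign. Of its 39 members 25 were lower in replicate 1 and higher in replicate 2, with medians of -0.12 and 0.25. In all 27 had opposite signs, against 53.9% of all tested genes. Another 10 (25.6%) were above WT in both replicates and 2 (5.1%) below, against 19.9% and 26.3% of all tested genes. Ifitm3 had 1054 and 919 RPKM in the libraries labelled KO, against 1515 and 683 RPKM in those labelled WT.

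A core of interferon-stimulated response elements, a pair of GAAA half-sites 2 bases apart, searched on both strands, was found in the window of 9 of the 10 GTPase genes with a RefSeq window (90.0%), against 4.07% of tested genes. Of the 9 genes 4 were above WT in both replicates and 0 below in both (19.9% and 26.3% of all tested genes). The windows of 5 of them, with values as different as those of Tgtp2 and Irgm2, are given with the motif in capitals.
Tgtp1: tccaggaatcGAAACTGAAAcctacctgac (chr11:48992304-48992333, minus strand)
Tgtp2: tccaggaatcGAAACCGAAAcctactctga (chr11:49064263-49064292, minus strand)
Igtp: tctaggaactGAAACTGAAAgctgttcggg (chr11:58199512-58199541, plus strand)
Irgm2: tccaggaactGAAACTGAAAgctgttcggg (chr11:58214903-58214932, plus strand)
Gbp2: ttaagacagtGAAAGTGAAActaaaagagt (chr3:142620594-142620623, minus strand)
The log2 KO/WT of these genes in replicates 1 and 2 was 0.21 and 0.51 for Tgtp1, 0.15 and 0.87 for Tgtp2, -0.01 and 0.63 for Igtp, -0.11 and 0.05 for Irgm2, and -0.02 and 0.21 for Gbp2. None of the 5 was past 1.5-fold in both replicates.

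Immediate-early factors, which are transcribed within minutes of a stimulus, were below WT in both replicates for 12 of 18 members (66.7%) and above for 1, against 26.3% below and 19.9% above over all tested genes. Medians were -0.32 and -0.14. Nr4a1, described above, and Klf4 came first by the smaller of the 2 ratios. Klf4, a transcription factor of monocyte differentiation, had 2.43 and 1.98 RPKM in the libraries labelled KO, against 4.11 and 3.15 RPKM in those labelled WT. Fos, picked after its value was seen, had a lower KO/WT ratio in replicate 1 (log2 of -1.53) than in replicate 2 (-0.26), at 27.0 and 11.3 RPKM (KO), against 79.0 and 13.7 RPKM (WT). Junb, the member with the highest level, had log2 values of -0.23 and -0.19, and Klf6, the exception, 0.10 and 0.07.

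Dual-specificity phosphatases, which switch off MAP kinases after stimulation, were below WT in both replicates for 6 of 10 members (26.3% of all genes), with medians of -0.13 and -0.23. Dusp1 had 100.0 and 66.0 RPKM in the libraries labelled KO, against 137.8 and 105 RPKM in those labelled WT. Its counting interval in replicate 2 ran from -0.78 to -0.57. Among 15 NF-kB factors and inhibitors 7 (46.7%) were below in both and 1 (6.7%) above (26.3% and 19.9% of all genes). Their medians were -0.17 and -0.11. Nfkbia, the inhibitor that NF-kB itself induces, was at -0.03 in each replicate. Of 20 members of the TLR4 receptor and adaptor list 16 had opposite signs in the replicates, against 53.9% of all tested genes. The other 4 were below WT in both and 0 were above, against 26.3% and 19.9% of all tested genes.

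**Figure D3:**
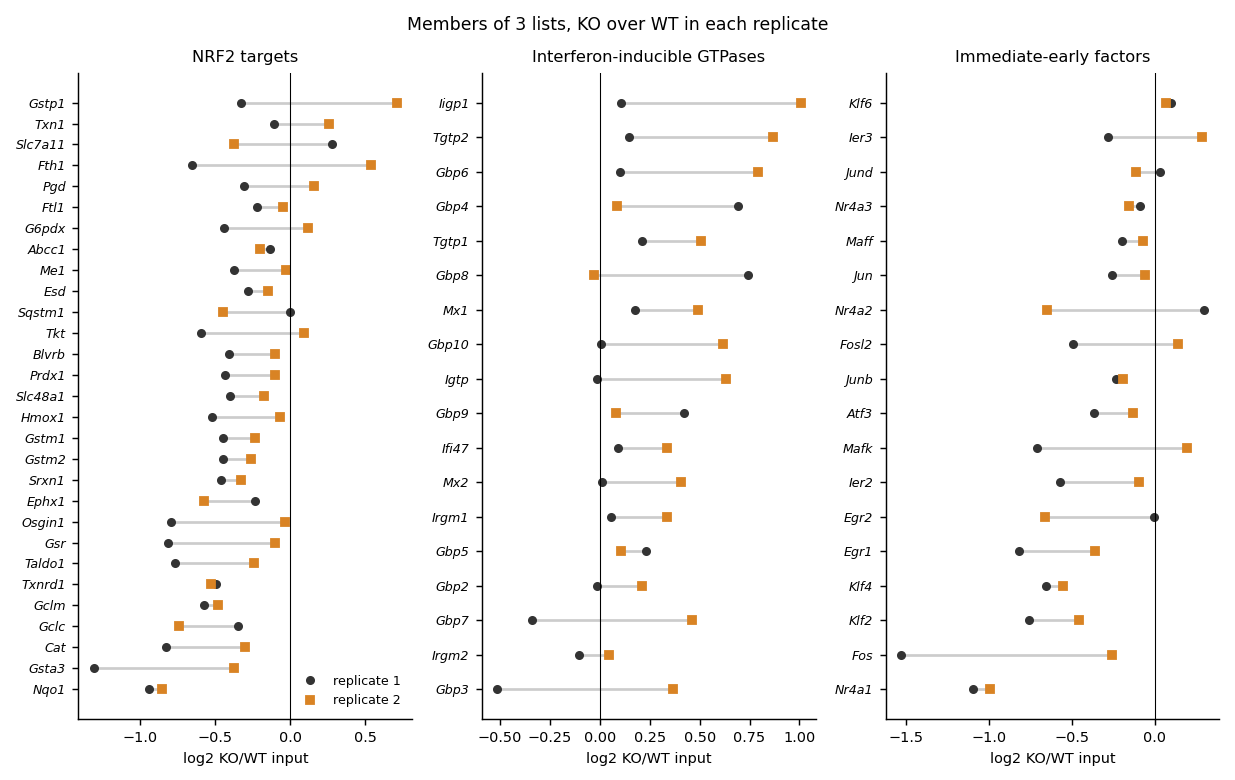
Log2 KO/WT of input RPKM + 0.5 (x axis) of each tested member in replicate 1 (circles) and replicate 2 (squares), for NRF2 targets, interferon-inducible GTPases and immediate-early factors, ordered by the sum of both. No NRF2 target of 29 and 12 of 18 GTPases lie right of 0 in both replicates, and 12 of 18 immediate-early factors lie left of 0 in both.

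Cytokines and costimulatory genes that the study discusses did not differ in a common direction. Il6, a cytokine induced by TLR4, had 41.0 and 80.3 RPKM in the libraries labelled KO, against 31.8 and 74.1 RPKM in those labelled WT, with a fitted log2 ratio of 0.24 ± 0.18 (SE, 2 libraries a group, limma adjusted p = 1.00). Il12b, the shared subunit of IL-12 and IL-23, was at -0.00 and -0.28. In the study's RNA-seq, a separate experiment, Il6 and Il12b were more than 1.5-fold lower in KO maDC in both replicates. Its qPCR also had them lower, so the Il6 input values here went the other way. Tnf was 0.15 in replicate 1 and -0.52 in replicate 2, and Il12a -0.34 and 0.38. The replicates also disagreed on Il1b, which passed 1.5-fold both ways, with 312 and 471 RPKM (KO), against 482 and 240 RPKM (WT).

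Cd86, a costimulatory ligand of CD28, had similar ratios in both replicates. Its level was 61.8 and 90.7 RPKM in the libraries labelled KO, against 45.2 and 65.1 RPKM in those labelled WT, log2 values of 0.45 and 0.48. Cd80 was at 0.69 and 0.01 and Cd40 at 0.48 and -0.41. The list of 15 costimulation and checkpoint ligands had 5 members above WT in both replicates and 3 below, against 19.9% and 26.3% of all tested genes. The other 7 had opposite signs, against 53.9% of all tested genes. Medians of the list were 0.26 and 0.01. Havcr2, which encodes TIM-3, was below in both, with 1.26 and 2.59 RPKM (KO), against 1.83 and 4.48 RPKM (WT). Tirap, the adaptor between TLR4 and MyD88, was at -0.06 and -0.12, and the inhibitor Socs1 at -0.16 and -0.06.

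Of 11 TNF superfamily ligands 6 (54.5%) were above WT in both replicates and 2 below (19.9% and 26.3% of all genes), and the pair past 1.5-fold were Tnfsf8 and Tnfsf15. Tnfsf4, OX40 ligand, which sustains T cell responses, had 46.7 and 121 RPKM in the libraries labelled KO, against 45.8 and 87.9 RPKM in those labelled WT. Over the 15 genes of the CC chemokine list, 4 (26.7%) were above and 4 below WT in both replicates, near the shares of all genes (19.9% and 26.3%). Ccl17, which attracts T cells through CCR4, had 131 and 308 RPKM (KO), against 50.2 and 225 RPKM (WT). Ccl2, the monocyte attractant, had 52.2 and 86.3 RPKM (KO), against 38.5 and 40.6 RPKM (WT).

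The rest of the m6A machinery differed little. Of 11 writers and erasers 2 (18.2%) were above WT in both replicates and 2 (18.2%) below, against 19.9% and 26.3% of all tested genes. Wtap, which holds the writer complex in nuclear speckles, had 47.1 and 45.9 RPKM in the libraries labelled KO, against 36.1 and 43.0 RPKM in those labelled WT. Mettl14, the partner of Mettl3, was at -0.06 and -0.08, and Zc3h13 at -0.52 and -0.18. Of 10 readers 4 were below in both and 2 above, against 26.3% and 19.9% of all tested genes. Ythdf1, a reader tied to translation, was at 0.21 and -0.08, and Igf2bp2 at -0.29 and -0.66 with levels between 1.58 and 3.88 RPKM.

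Of 35 genes for lysosomal membrane proteins, hydrolases and V-ATPase subunits 17 (48.6%) were below WT in both replicates and 1 above, against 26.3% and 19.9% of all tested genes, with medians of -0.22 and -0.09. The list is not even, since Psap, the precursor of saposins and its most abundant member, was at -0.47 and 0.14. Among genes of prostaglandin and leukotriene synthesis Ptgs2 (COX-2) had 4.16 and 4.46 RPKM (KO), against 7.88 and 6.44 RPKM (WT), and Alox5 had 4.01 and 13.9 RPKM (KO), against 7.99 and 18.9 RPKM (WT). In that list 6 of 15 (40.0%) were below in both and 1 (6.7%) above, against 26.3% and 19.9% of all tested genes. The other 8 had opposite signs, against 53.9% of all tested genes. Slc40a1, the iron exporter ferroportin, had 2.21 and 9.59 RPKM (KO), against 3.35 and 18.3 RPKM (WT).

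Cytosolic ribosomal protein genes were above WT in both replicates for 36 of 74 members (48.6%) and below for 4, against 19.9% and 26.3% of all tested genes. Their medians were 0.38 in replicate 1 and 0.01 in replicate 2, so the shift of the median was seen in replicate 1. Their summed level was 52202 and 20091 RPKM in the libraries labelled KO, against 40922 and 20312 RPKM in those labelled WT. Many of these genes have processed pseudogenes that can take up reads, which makes single members uncertain. Of 270 zinc finger genes of the Zfp series 113 (41.9%) were above WT in both and 42 (15.6%) below (19.9% and 26.3% of all genes), with medians of 0.16 and 0.02. By the smaller of the 2 ratios Zfp189 and Zfp273 came first, with log2 values of 0.63 and 0.56 for Zfp189 and 0.49 and 0.60 for Zfp273. Zfp36, which encodes the mRNA decay factor tristetraprolin, was the exception at the top of the range of levels, with 187 and 140 RPKM (KO), against 283 and 168 RPKM (WT).

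Many lists had medians of opposite sign in the replicates. Dendritic cell markers were at 0.33 in replicate 1 and -0.16 in replicate 2, and macrophage markers at -0.34 and 0.15. Of 18 dendritic cell markers 11 were higher in replicate 1 and lower in replicate 2 and 1 the other way. Of 24 macrophage markers 13 were lower in replicate 1 and higher in replicate 2 and 3 the other way. Opposite signs were thus seen in 12 of 18 and 16 of 24 markers, against 53.9% of all tested genes. Flt3, the receptor for the dendritic cell growth factor FLT3 ligand, had 22.05 and 4.95 RPKM in the libraries labelled KO, against 14.9 and 11.0 RPKM in those labelled WT. Msr1, a scavenger receptor of macrophages, had 35.6 and 73.1 RPKM (KO), against 80.0 and 38.1 RPKM (WT).

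Values of this size in opposite directions were not limited to low counts. Msr1 had 2342 (KO) and 1376 (WT) reads in replicate 2, with a counting interval of the log2 ratio from 0.84 to 1.04. Saa3, an acute-phase protein and one of the 8 genes with the highest input, had 13248 and 7506 RPKM (KO), against 21772 and 3887 RPKM (WT). Among the chemokine genes, Cxcl5 had 3.04 and 29.3 RPKM (KO), against 12.6 and 9.19 RPKM (WT), and Cxcl14 had 9.16 and 9.15 RPKM (KO), against 42.6 and 3.92 RPKM (WT).

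The genes with the reverse pattern were weaker in level. Of 35 genes past 1.5-fold higher in replicate 1 and lower in replicate 2, 23 had a mean under 5 RPKM. Rgs10, a regulator of G protein signalling, was well expressed, with 145 and 103 RPKM in the libraries labelled KO, against 65.8 and 189 RPKM in those labelled WT. Il2ra, the alpha chain of the IL-2 receptor, had 38.7 and 16.5 RPKM (KO), against 20.1 and 26.8 RPKM (WT). Replication histones, whose mRNAs mostly lack a poly(A) tail, had a median of 1.39 in replicate 1 and -0.22 in replicate 2 over 17 members. Their summed level was 369 and 114 RPKM (KO), against 160 and 119 RPKM (WT), and H2bc8 rested on 3 (KO) and 9 (WT) reads in replicate 2, with a counting interval from -3.93 to 0.59. Targets of p53 were at 0.11 and -0.37, with Cdkn1a, the cell cycle inhibitor p21, at 125 and 94.7 RPKM (KO), against 126 and 151 RPKM (WT).

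**Figure D4:**
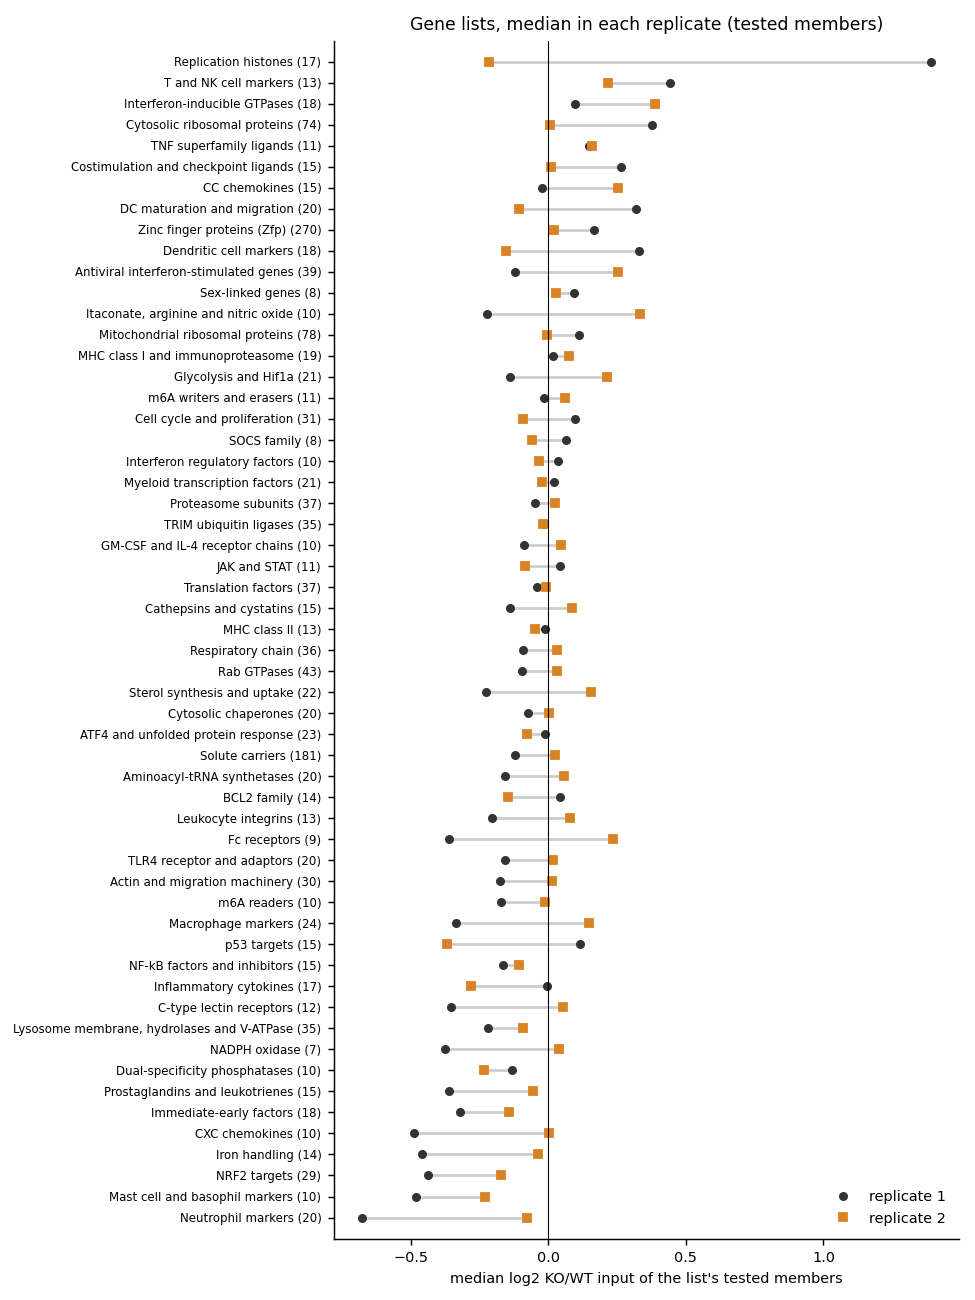
Median log2 KO/WT of input RPKM + 0.5 (x axis) over the tested members of each list with 5 or more (number in parentheses), in replicate 1 (circles) and replicate 2 (squares). NRF2 targets (-0.44 and -0.17) and neutrophil markers (-0.68 and -0.08) lie left of 0 in both replicates, while replication histones (1.39 and -0.22) and macrophage markers (-0.34 and 0.15) cross it.

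Markers of other blood cells differed along with several of these genes, and their part in the results was not tested. Of 20 tested neutrophil markers 11 (55.0%) were below WT in both replicates and 0 above, against 26.3% and 19.9% of all tested genes, with medians of -0.68 and -0.08. Their summed level was 4002 and 7978 RPKM in the libraries labelled KO, against 6197 and 7312 RPKM in those labelled WT. Lcn2, the marker with the highest level, was at -0.67 and 0.33. Ctsg, Padi4 and Mmp8 were the markers past 1.5-fold in both. Mpo, myeloperoxidase of granulocyte precursors, had 3.33 and 1.38 RPKM (KO), against 11.9 and 1.98 RPKM (WT).

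Mast cell and basophil markers had a summed level of 30.2 and 65.0 RPKM in the libraries labelled KO, against 39.9 and 91.6 RPKM in those labelled WT. Of 10 tested markers 6 were below WT in both replicates and 2 above. The mast cell proteases Mcpt4 and Tpsab1 were at 0 in both libraries of replicate 1 and are not listed in replicate 2. T and NK cell markers summed to 25.1 and 50.5 RPKM (KO), against 17.3 and 39.7 RPKM (WT), and of 13 tested 7 (53.8%) were above in both and 2 below (19.9% and 26.3% of all genes). The 2 below were subunits of CD3, with Cd3e at -0.18 and -0.22 and Cd3g at -0.65 and -0.19. Platelet chemokine genes Pf4 and Ppbp crossed, at -0.79 and 1.80 for Pf4 and -2.06 and 1.36 for Ppbp. Markers of B cells summed to at most 14.01 RPKM in any library, those of stroma to at most 14.2 RPKM and those of endothelium to at most 16.7 RPKM.

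Ratios were higher at low GC content in both replicates. Tested genes were split into 5 bins by the GC content of their longest RefSeq transcript. In the lowest bin (32.7% to 44.3%) the median log2 ratio was 0.05 and 0.08, and in the highest bin (55.8% to 69.8%) it was -0.07 and -0.07. In the lowest bin 35.9% of genes were above WT in both replicates and 12.5% below, and in the highest bin 11.7% were above and 37.0% below. Spearman's rho across 10433 genes was -0.13 in replicate 1 and -0.24 in replicate 2. Zfp genes and interferon-inducible GTPases have a low GC content, with medians of 44.5% and 45.2%, against 50.2% over all tested genes, and immediate-early factors a high one, with 54.7%. NRF2 targets, at 51.8%, were close to all genes. The part of GC content in the list values was not tested.

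The m6A consensus was counted as GGACT per kilobase of the same transcripts. From the bin of lowest density to the highest, the medians were -0.01 to -0.04 in replicate 1 and 0.01 to -0.03 in replicate 2, with rho of -0.03 and -0.06. These spans were smaller than those across GC content. The density counts letters in a transcript and not methylated sites. By transcript length the medians lay between -0.06 and 0.01 in replicate 1 and between -0.02 and 0.00 in replicate 2, with no steady order.

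Genes near Mettl3 were counted as a check of position. Within 5 Mb on chromosome 14, 92 genes were tested, of which 15 (16.3%) were above WT in both replicates and 19 (20.7%) below, with medians of -0.05 and 0.01. Over all tested genes the shares were 19.9% and 26.3%, and the medians -0.03 and -0.01. Past 1.5-fold in both replicates, 2 of the 92 genes were lower and 0 higher, against 0.153% and 0.105% of all tested genes. The 2 were the granule protease genes Ctsg and Mcpt8, about 3.8 Mb away. Gzmb also lies there, with 2.58 and 7.67 RPKM in the libraries labelled KO, against 1.77 and 2.60 RPKM in those labelled WT. Rnase2a, named upwards above, lies 1.04 Mb away, with log2 KO/WT of 1.41 and 0.58. The part of position in these values was not tested. Across autosomes and the X chromosome the medians stayed between -0.08 and 0.03 in replicate 1 and between -0.05 and 0.05 in replicate 2. Y-linked Eif2s3y was present in each library, at 19.3 and 58.4 RPKM (KO), against 23.9 and 51.8 RPKM (WT).

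**Figure D5:**
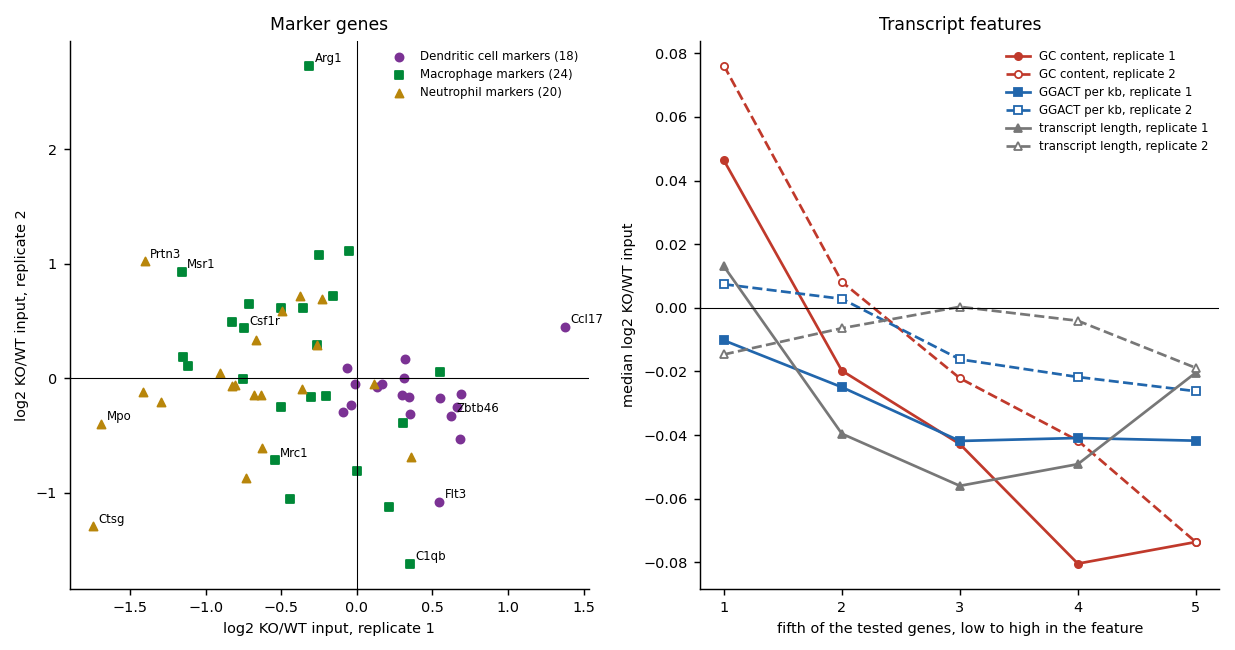
Left, log2 KO/WT of input RPKM + 0.5 of dendritic cell, macrophage and neutrophil marker genes in replicate 1 (x axis) and replicate 2 (y axis), with dendritic cell markers mostly at the lower right and macrophage markers mostly left of 0. Right, median log2 KO/WT (y axis) in 5 bins of tested genes ordered by GC content, GGACT density or length (x axis), where GC content spans 0.05 to -0.07 in replicate 1 and 0.08 to -0.07 in replicate 2.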

How the data were processed

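Input mRNA was analysed in 2 libraries per genotype. The authors deposited RPKM values in 1 table per replicate. Tools named by the submitters are bcl2fastq, TopHat2 2.0.14 and Cuffnorm, with the build mm10. For annotation, strand and the counting of the second table no source was found. Columns of that table were matched by the group they name. Rows with a date for a symbol (27 and 19) were left out, and symbols were updated through RefSeq GRCm38.p6.

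Values were log2(RPKM + 0.5), which understates changes of low genes, after a filter at a mean of 1 RPKM. limma 3.58.1 (R 4.3.3; eBayes with trend, two-sided) was fitted to all genes with the replicate as a block, leaving 1 residual degree of freedom per gene, and was tested on simulated data. Pairing rests on the shared table (deviations of libraries of a replicate correlated at 0.78 across genes). Whole reads of replicate 2 (RPKM times length times total, within 0.01 read) were recovered for 78.1% of genes, against 1.85% with the length of another gene, and are not independent molecules. Named genes were the 12 in each direction with the largest smaller ratio of the replicates, 8 of each opposite kind, the 8 highest, list members ranked by level and by ratio, and genes the study discusses. Adgre1, St14, Mmp8, Iigp1, Tgtp2, Irgm2, Igtp, Il2ra, Mpo, Cd3e, Cd3g, Gzmb and Fos were added after their values were seen. Members and lists were chosen with earlier results of these data known. Alternatives were other pseudocounts, filters, scalings, fits and libraries left out.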

Additional observations from a re-analysis of the deposited data

How the results depend on the processing

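The counts of genes past the test stayed at 0 in both directions under both other pseudocounts, no filter, a filter at 5 RPKM, centring, quantile normalization, eBayes without a trend, symbols as written and the fit with no replicate block, which had 5 higher and 7 lower genes at an unadjusted p under 0.05. Leaving out 1 library each, without the block, gave 0 to 44 higher and 0 to 27 lower genes. The calls came without KO replicate 2 (44 higher, 6 lower) and without KO replicate 1 (6 higher, 27 lower), where the remaining KO library is set against WT libraries of both tables and is assumed to vary as they do, so that differences between the tables enter the ratio, and 0 came without either WT library. The cause was not tested.

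Genes at least 1.5-fold higher in both replicates numbered 11, against 20 with a pseudocount of 0.1 RPKM, 6 with 1 RPKM, 5 with a filter at 5 RPKM and 17 with centred libraries. Genes at least 1.5-fold lower numbered 16, against 31, 10 and 10 under the first 3 of these settings and 12 with centring. The pseudocount and the filter act on low genes by construction. Fitted values of 41 named genes kept their sign in all 317 refits, with a smallest adjusted p of 0.36. Dropping the block or the trend, or changing the filter, cannot change a fitted value in this balanced design. The 12 genes named in each direction were also picked for a sign shared by both replicates. The kept signs are thus no independent support. Of 596 recomputed list medians 19 changed sign. Depth limits low genes in replicate 2 and is unknown in replicate 1.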
